A study of Mus musculus with 3 samples.

Results

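The genes described here are 40 type I interferon-stimulated genes of the mouse, taken by name from a fixed list, and all 40 were among the 31054 features counted in the files. They were followed in the lung, one single-cell RNA library per group. The first library came from non-irradiated wild-type mice, the control. The second came from wild-type mice that had been irradiated, and the third from irradiated mice with a conditional knockout that were also given a drug. Both irradiated libraries share the irradiation, and the knockout library differs from the irradiated wild-type library in its genotype and in the drug together, so that effects of the deletion and of the drug cannot be told apart. The deleted gene, the Cre line, the drug, the radiation dose, the time of collection, the age of the mice and their number per library are not stated in the sources used, and the targeted gene could not be checked. With 1 library per group no test across samples exists. The intervals below are exact 95% Poisson intervals of a level, exact conditional intervals of a ratio or exact binomial intervals of a share of cells, and they cover counting error only.

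Type I interferons are secreted proteins that bind a receptor of the subunits IFNAR1 and IFNAR2 on nearly every nucleated cell. Signalling from the receptor's kinases JAK1 and TYK2 forms the factor ISGF3, which contains IRF9 and binds an interferon-stimulated response element in the promoters of genes such as those described here. Their products tag proteins with ISG15, degrade or sense foreign RNA, block viral entry and feed back on the pathway. In the lung this programme is best known from viral infection, and cytosolic DNA sensing after radiation is a further route to it.

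The libraries held 15485, 7084 and 11292 barcodes with 85984536, 45800421 and 76667310 unique molecular identifiers (UMIs), in the order non-irradiated, irradiated wild type and irradiated knockout with drug. Of these, 13091, 5805 and 9886 cells had at least 250 genes and at most 15% mitochondrial UMIs and were kept. Their median depth was 4899, 5706 and 6070.5 UMIs. Pairs of libraries shared 25 to 46 barcodes. In the irradiated wild-type library 1595 kept cells (27.5%) carried a UMI of a Y-linked gene and none of Xist, while 1 control cell and 27 cells of the knockout library did, so that the former holds cells of both sexes.

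Cells were assigned to 7 gates by the UMIs of defining genes, and a cell could fall in more than one. The gates were T cells (at least 2 UMIs of Cd3d, Cd3e and Cd3g; 1859, 2674 and 5103 cells), B cells (at least 2 of Cd79a; 1425, 571 and 763 cells), NK cells (at least 1 of Ncr1 and none of Cd3; 318, 339 and 463 cells) and myeloid cells with at least 1 UMI of Csf1r (628, 86 and 240 cells). The others were endothelial cells (at least 2 UMIs of Pecam1 and Cdh5; 2945, 401 and 695 cells), fibroblasts (at least 2 of Col1a1 and Col1a2; 3950, 424 and 963 cells) and epithelial cells (at least 1 of Epcam and none of Ptprc; 448, 118 and 190 cells). The endothelial label did not hold in every library. A list of 5 further endothelial markers was seen in 87.6% of the gate's cells in the non-irradiated library but in 24.4% and 41.7% in the irradiated libraries, and the leukocyte gene Ptprc in 22.7%, 73.3% and 60.3%. Fibroblast markers were seen in 97.3%, 97.6% and 96.3% of the fibroblast gate. A list of 5 further epithelial markers was seen in only 65.2%, 75.4% and 57.9% of the epithelial gate, and 45.8%, 30.5% and 41.6% of its cells also fell in another gate.

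UMIs were summed per gate and library and divided by the gate's total in its library and scaled to CPM. In each of 2 comparisons a gene was measured where it had at least 20 UMIs over both libraries, and it was called higher or lower where the ratio of its levels, with 5 CPM added to each, reached 1.5-fold. Log2 ratios carry the added 5 CPM, and plain ratios do not. The 20 members that respond most specifically to interferon, from Isg15 and the Ifit genes to Usp18, Mx1 and Zbp1, were also summed as a core. Several members have close relatives whose reads the counting could split (Ifit3 and Ifit3b, Oas1a and Oas1g, Slfn8 and Slfn9, Ifi203 and Ifi204, and the Ifitm genes), and their single values are uncertain to that extent.

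In the irradiated wild-type library the core genes stood higher in epithelial cells and fibroblasts than in the control, and not in the lymphoid gates. The summed core level of the epithelial gate was 113 CPM (105 to 122) in the control. Irradiated wild type had 442 CPM (416 to 469) and the knockout with drug 576 CPM (549 to 604). Irradiated wild type over control gave a ratio of 3.91 (3.56 to 4.30). In fibroblasts the levels were 208 (203 to 213), 356 (339 to 374) and 390 CPM (377 to 402), a ratio of 1.72 (1.62 to 1.81) for irradiated wild type over control. The T gate went the other way, with 224 (217 to 232), 188 (183 to 194) and 280 CPM (275 to 285) and a ratio of 0.840 (0.802 to 0.880), and so did the B gate, with 136 (128 to 144), 89.8 (80.1 to 100.5) and 140 CPM (130 to 150) and a ratio of 0.662 (0.581 to 0.752). NK cells held 160 (143 to 179), 138 (121 to 156) and 158 CPM (143 to 173), and the ratio of 0.861 (0.725 to 1.02) did not differ from 1 beyond counting error. Csf1r-positive cells were the highest of the 7 gates in the control, with 694 (670 to 718), 537 (502 to 574) and 465 CPM (442 to 488). The endothelial gate held 361 (353 to 370), 345 (327 to 364) and 402 CPM (387 to 418). Over all kept cells together the core gave 260, 238 and 311 CPM, so the epithelial and fibroblast differences were not seen in the sum over each library.

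**Figure D1:**
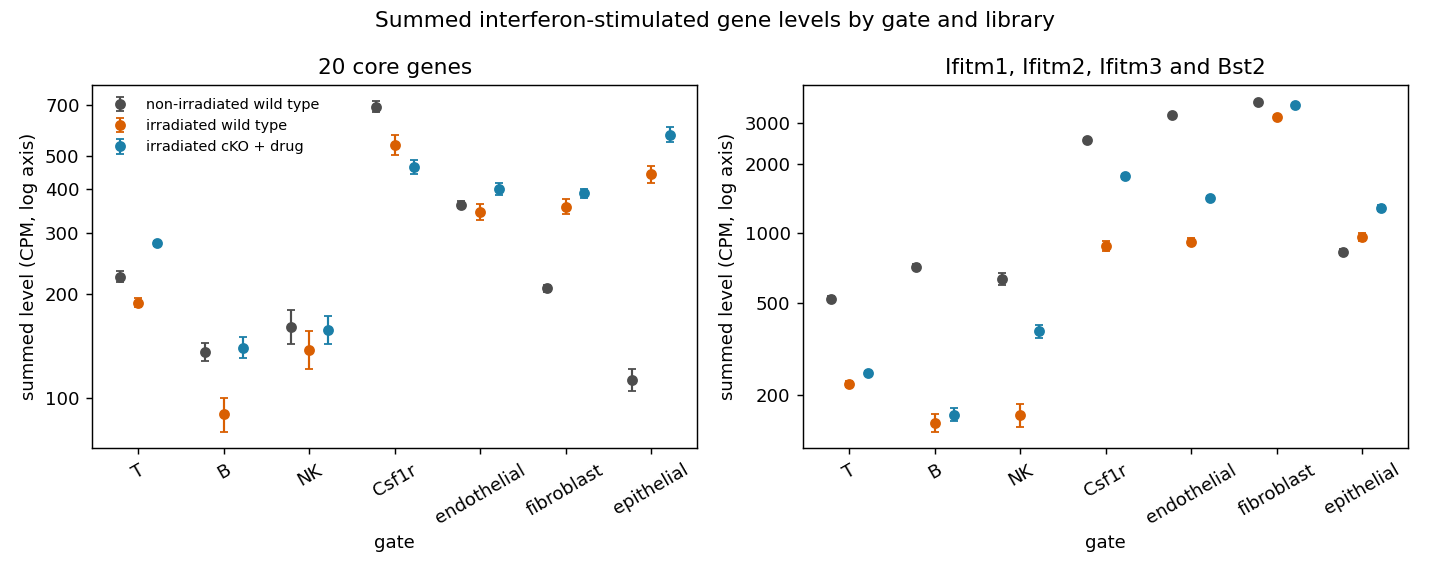
Summed level in CPM (log axes) of the 20 core genes (left) and of the 4 membrane genes Ifitm1, Ifitm2, Ifitm3 and Bst2 (right) in each of the 7 gates; each point is 1 library and its bar the exact 95% Poisson interval, which covers counting error only. The irradiated wild-type point of the core lies above the control in the epithelial (442 against 113 CPM) and fibroblast (356 against 208 CPM) gates and below it in the T gate (188 against 224 CPM), and the membrane genes lie below the control in 6 of the 7 gates.

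Epithelial cells showed the broadest difference between irradiated wild type and control. Of 35 members measured, 19 were higher and 2 lower, against 15.6% higher and 9.55% lower among the 12235 genes measured there; the median log2 ratio was 0.64 for the members and 0.14 for all genes. Of the core, 13 of 17 measured genes were higher, with a median of 1.37. The remaining 5 members had too few UMIs. With every cell thinned to 1000 UMIs, 8 members had enough UMIs, and 3 of these were higher and 2 lower. The median log2 ratio was then 0.14 for the members and 0.15 for all genes, while that of the summed core was 2.50.

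The ISG15 system was higher throughout in the epithelial gate, 3 of 3 genes. Isg15, a ubiquitin-like protein that is attached to other proteins, stood at 20.2 CPM (16.9 to 24.0), 129 CPM (115 to 144) and 194 CPM (178 to 210), in the order control, irradiated wild type and knockout with drug, which holds wherever 3 values follow each other below. It was seen in 67 of 448, 43 of 118 and 55 of 190 cells. Both irradiated libraries were thus above the control, and the ratio of irradiated wild type to control was 6.39 (5.19 to 7.89). Usp18, the protease that removes ISG15 and dampens receptor signalling, was at 16.5, 51.4 and 52.8 CPM. Herc6, the ligase that conjugates ISG15 in the mouse, was at 5.80, 11.6 and 11.2 CPM.

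Of the genes with tetratricopeptide repeats and their antiviral neighbours, 4 of 5 were higher. Ifit1, which binds foreign RNA at its 5′ end, was at 3.60, 31.5 and 40.3 CPM, a ratio of 8.73 (5.43 to 14.6) for irradiated wild type over control. Ifit3, which stabilises Ifit1, was at 3.76, 21.1 and 53.8 CPM. Rsad2 (viperin, a radical SAM enzyme) was at 3.29, 23.1 and 17.6 CPM and its genomic neighbour Cmpk2, a nucleotide kinase, at 4.86, 10.4 and 13.5 CPM. Ifit2 did not take part, with 3.45, 1.59 and 3.38 CPM.

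The oligoadenylate synthetase group, whose enzymes make the second messenger that activates RNase L, was higher in 3 of the 3 genes measured. Oas1a was at 0.940, 9.96 and 5.41 CPM, and the synthetase-like genes Oasl1 and Oasl2 were at 1.41, 17.9 and 19.3 and at 5.80, 25.5 and 34.5 CPM. Among the sensors 2 of 5 were higher: Zbp1, which senses Z-form nucleic acid, at 3.13, 17.5 and 17.6 CPM, and Eif2ak2 (PKR, a kinase activated by double-stranded RNA), at 13.3, 27.5 and 14.5 CPM. The RNA helicase Ifih1 (MDA5) was at 11.4, 13.6 and 12.5 CPM. The sensors therefore split, and neither of the 2 nuclease genes nor any of the 3 PARP genes was called.

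The largest log2 ratio of all members in epithelial cells was that of Lgals3bp, a secreted glycoprotein that binds galectins. It stood at 30.1 CPM (26.0 to 34.7), 265 (245 to 286) and 136 (123 to 150), a log2 ratio of 2.94 for irradiated wild type over control. The next were Isg15 at 2.41 and Ifit1 at 2.08. Ifi35, Ifi44, Rtp4 and Phf11d were the other called genes of the mixed group, in which 5 of 10 were higher and 1 lower. Rtp4, a chaperone with antiviral activity, was at 8.93, 31.1 and 43.6 CPM.

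The membrane restriction genes, which block viral fusion (Ifitm genes) or tether budding virions (Bst2), pointed in different directions in this gate. Bst2 was at 75.7, 153 and 149 CPM and Ifitm1 at 72.6, 133 and 348 CPM, both called higher in irradiated wild type, whereas Ifitm2 was called lower, at 280, 132 and 176 CPM. Slfn5, a nuclear Schlafen protein, was the lowest member, with 158 UMIs in the control (24.8 CPM), 2 in irradiated wild type (0.797 CPM) and 15 in the knockout with drug (5.07 CPM).

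Other values differed in the epithelial gate too. The surfactant gene Sftpc, of alveolar type II cells, was at 98179, 27715 and 34169 CPM and Scgb1a1, of club cells, at 120595, 149468 and 144248 CPM. Markers of endothelial cells were seen in 48.2%, 11.9% and 12.1% of its cells, a neutrophil list summed to 331, 9.17 and 35.2 CPM, and a list of dissociation-stress genes to 11600, 5882 and 6540 CPM. Their part in the differences was not tested. Among epithelial cells that fell in no other gate the core was at 94.1, 509 and 698 CPM, a ratio of 5.41 (4.77 to 6.14) for irradiated wild type over control.

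Fibroblasts showed a smaller difference in fewer genes. Of 39 members measured 10 were higher and 1 lower, against 2.01% and 3.31% of 14544 genes, with a median log2 ratio of 0.33 against 0.02 for all genes. The core had 8 of 19 genes higher and none lower, and 32 of the 39 members lay above a log2 ratio of 0. With 20 CPM added in place of 5, only 2 members were called higher; with every cell thinned to 1000 UMIs 3 of 31 were higher and 3 lower.

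By role, 2 of 3 genes of the ISG15 system, 3 of 6 of the Ifit group, 1 of 4 synthetases and 2 of 6 sensors were higher in fibroblasts. Isg15 was at 33.5 CPM (31.6 to 35.5), 77.2 (69.3 to 85.8) and 72.1 (66.8 to 77.7), a ratio of 2.30 (2.04 to 2.60) for irradiated wild type over control, and Usp18 at 4.65, 9.68 and 9.17 CPM. Ifit1 was at 9.53, 20.5 and 26.3 CPM, Ifit3 at 17.7, 35.6 and 46.3 CPM and Rsad2 at 1.47, 8.10 and 8.33 CPM. In each of these genes both irradiated libraries lay above the control. Ifi204, a nuclear DNA sensor of the HIN200 family, had the largest log2 ratio, 1.34, from 2.95, 15.1 and 8.75 CPM. Zbp1 was at 11.4, 24.8 and 32.0 CPM, Oasl2 at 13.8, 26.8 and 27.3 CPM, Ifi44 at 4.71, 10.1 and 15.1 CPM and Slfn8, of the Schlafen family, at 2.66, 8.78 and 11.3 CPM.

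No membrane gene, nuclease or PARP gene was called in fibroblasts. Ifitm1 was at 350, 259 and 345 CPM, and the 4 membrane genes together at 3700, 3194 and 3577 CPM. Slfn5 was again the lowest member, at 38.4, 16.2 and 19.7 CPM. In both the epithelial and the fibroblast gate 8 members were called higher: Isg15, Usp18, Ifit1, Ifit3, Rsad2, Oasl2, Zbp1 and Ifi44. Of all genes measured 15.6% were higher in epithelial cells and 2.01% in fibroblasts. The share of all genes higher in both gates is not given here, so this overlap has no background beside it. In the fibroblast gate markers of endothelial cells were seen in 38.9%, 2.83% and 6.44% of cells and the neutrophil list summed to 273, 77.9 and 2697 CPM, and their part in the differences was not tested. Fibroblasts in no other gate kept a core ratio of 1.83 (1.73 to 1.95).

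**Figure D2:**
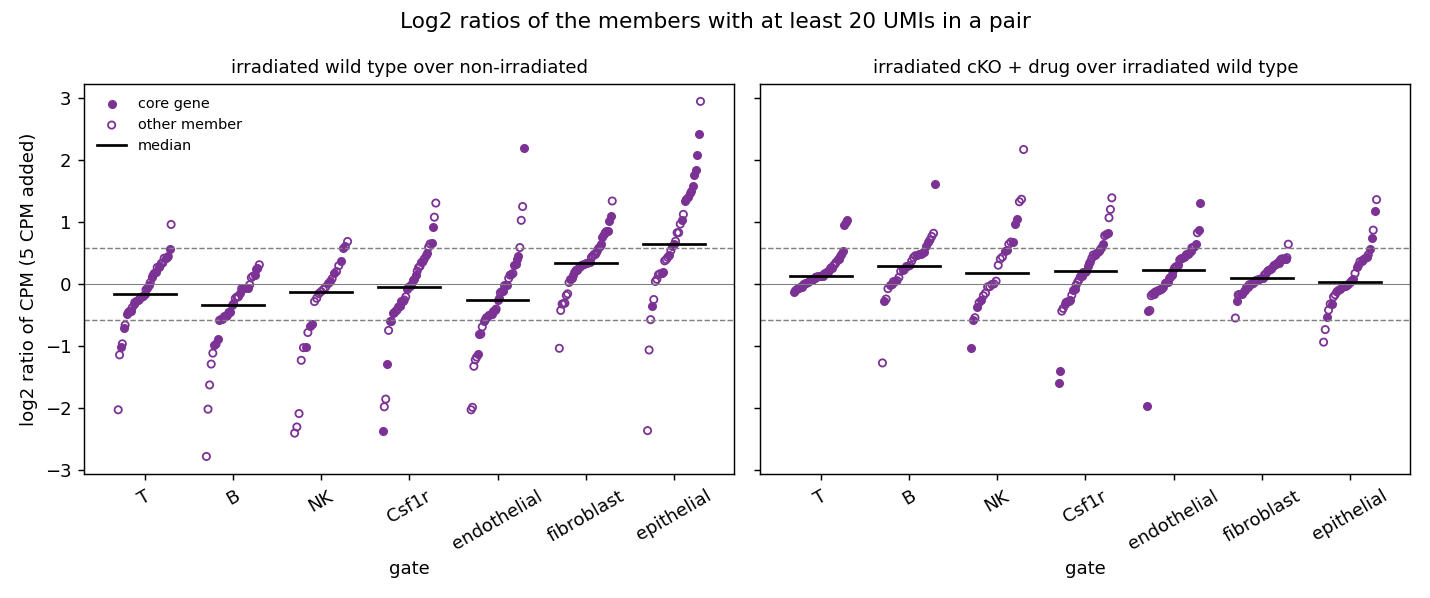
Log2 ratio of CPM, with 5 CPM added, of every member with at least 20 UMIs in the pair (filled, core genes; open, other members; bars, medians) in each gate, for irradiated wild type over control (left) and knockout with drug over irradiated wild type (right); dashed lines mark 1.5-fold. On the left the epithelial median is 0.64 and the fibroblast median 0.33, while the other 5 medians lie between -0.33 and -0.04.

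The promoters of the genes that were higher in both gates are shown because ISGF3 recognises a repeat of GAAA that can be read directly from their sequence. The bases before each annotated start were taken from RefSeq (GRCm38.p6), which held 30 of the 40 members. The 250 bases before the start were searched on both strands for GAAANNGAAA, read on the opposite strand as TTTCNNTTTC. The repeat was found in 13 of 30 members (43.3%), against 936 of 27025 genes of the table (3.46%). Of the members higher in both gates 6 had a promoter entry and 4 held the repeat, beside 9 of the 24 other members (37.5%). The stretches below run 5′ to 3′ on the strand of the gene, and the capitals mark the bases GAAA or TTTC of 1 repeat.
Isg15, chr4:156200856-156200915, minus strand: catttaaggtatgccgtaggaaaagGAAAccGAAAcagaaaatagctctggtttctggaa
Ifit1, chr19:34640779-34640838, plus strand: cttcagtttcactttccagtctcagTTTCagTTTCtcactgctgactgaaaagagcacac
Ifit3, chr19:34583382-34583441, plus strand: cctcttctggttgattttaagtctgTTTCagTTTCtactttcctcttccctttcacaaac
Rsad2, chr12:26456538-26456597, minus strand: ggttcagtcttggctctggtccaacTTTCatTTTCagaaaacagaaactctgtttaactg
The first base of the marked repeat lies 72, 85, 122 and 120 bases before the start of Isg15, Ifit1, Ifit3 and Rsad2. In Isg15 the marked repeat overlaps a further match on either side. The windows of Ifi44 and Oasl2 held no match, which says only that these letters are not in those 250 bases. A match describes the sequence and not a bound site, and no binding was measured.

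In the endothelial gate as a whole, 4 of 39 members were higher and 10 lower in irradiated wild type, against 11.9% and 22.4% of 14020 genes, so the members' counts lay near those of all genes; the medians were -0.25 and -0.14. The composition of this gate differed most between libraries, as the marker values above show. The lower members included Ifitm2 and Ifitm3, at 985, 238 and 426 CPM and at 1759, 441 and 669 CPM, and Slfn5, at 263, 102 and 137 CPM. Oasl1 had the highest log2 ratio, 2.19, but its 139 UMIs in irradiated wild type came from 13 cells.

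Where cells with Ptprc were left out, a choice made after seeing the data, the endothelial core stood at 389 CPM in 2277 control cells, 582 in 107 irradiated wild-type cells and 726 in 276 cells of the knockout with drug. The ratio of irradiated wild type to control was then 1.5 (1.37 to 1.63), against 0.955 (0.900 to 1.01) in the whole gate. Cells that in addition carried at least 2 UMIs of the endothelial genes Cldn5 and Egfl7 gave 419, 687 and 663 CPM in 1980, 74 and 200 cells, a ratio of 1.64 (1.47 to 1.82). The same restriction to cells without Ptprc left the fibroblast ratio at 1.70 (1.60 to 1.81). Endothelial cells that met the marker rule were thus higher in both irradiated libraries, whereas cells of the gate that fell in no other gate, with Ptprc allowed, had 468, 397 and 610 CPM in 2015, 172 and 297 cells. The whole gate was also split by the aerocyte genes Car4 and Ednrb. Cells with at least 2 of their UMIs had 445, 562 and 571 CPM in 633, 52 and 98 cells. The rest of the gate had 317.5, 318.4 and 371 CPM in 2312, 349 and 597 cells.

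In the 4 leukocyte gates, each taken as a whole, the core of irradiated wild type did not stand above the control. In T cells 1 of 39 members was higher and 6 lower in irradiated wild type, against 3.43% and 9.07% of 13452 genes, with a median log2 ratio of -0.15 against 0.05 for all genes. The 1 higher member was Ifi27l2a, a small interferon-induced membrane protein, at 193, 380 and 361 CPM. The lower ones were Ifit1 at 25.9, 10.2 and 25.4 CPM, Ifit3 at 9.69, 3.996 and 13.5 CPM, Slfn5 at 19.5, 10.5 and 11.7 CPM and the 3 Ifitm genes, of which Ifitm3 was at 237, 54.5 and 68.2 CPM. Isg15 was at 57.8, 49.9 and 67.4 CPM and was not called.

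In B cells none of 34 members was higher and 8 were lower, against 3.29% and 12.4% of 11576 genes, with a median of -0.33 against -0.0038 for all genes. Ifitm3 was at 354, 47.4 and 65.5 CPM, Bst2 at 65.1, 23.7 and 45.6 CPM, Isg15 at 21.6, 8.49 and 16.5 CPM and Ifit1 at 6.38, 1.17 and 13.8 CPM. All of these were lowest in irradiated wild type. NK cells had 2 of 25 members higher and 9 lower, against 9.4% and 11.4% of 8886 genes, with a median of -0.12 against 0.08. The higher ones were Ifi203, of the HIN200 family, at 32.9, 52.6 and 41.9 CPM, and Slfn8, at 11.8, 22.1 and 13.6 CPM. Ifi27l2a was the lowest, at 78.1, 10.7 and 65.7 CPM.

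Csf1r-positive cells, which take in monocytes and macrophages, had 6 of 38 members higher and 7 lower, against 11.1% and 16.4% of 11280 genes, and the medians of the members and of all genes were both -0.04. Lgals3bp was at 40.4, 107 and 187 CPM and Oas1a at 5.83, 15.4 and 17.3 CPM. Ifit1 was at 87.9, 12.9 and 15.8 CPM and Isg15 at 294, 192 and 158 CPM, both lower. The 86 cells of this gate in irradiated wild type limit what can be read from single genes: 1 cell held 27.8% of their core UMIs. The kinds of cells in this gate differed. Cells with C1qa or C1qb, which mark interstitial macrophages, were at 2203, 1066 and 744 CPM in 64, 13 and 37 cells and held 1733 core UMIs in the control. Cells with Ace or Treml4, which mark nonclassical monocytes, were at 384 (361 to 408), 534 (472 to 602) and 240 CPM (212 to 271) in 351, 30 and 99 cells. Alveolar macrophage-type cells were at 188 (158 to 221), 267 (224 to 314) and 200.2 CPM (167 to 238), and classical monocyte-type cells at 306 (227 to 403), 326 (265 to 398) and 239 CPM (196 to 289). Irradiated wild type was thus below the control in the C1q cells, above it in the nonclassical and alveolar kinds, and level with it within counting error in the classical kind.

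Some members were called lower in irradiated wild type in most gates. These were Ifitm2 and Slfn5 in 6 of the 7 gates each and Ifitm3 in 5. The 4 membrane genes summed to 521, 224 and 250 CPM in T cells, 717, 151 and 164 CPM in B cells, 635, 164 and 376 CPM in NK cells and 2527, 881 and 1762 CPM in Csf1r-positive cells. Beside this, the 5 endothelial markers were seen in 37.1% of control T cells against 2.09% and 4.84% in the irradiated libraries, and in 37.8% of control B cells against 2.10% and 4.59%. In T cells Sftpc, which they do not make, was at 2669, 84.2 and 290 CPM, and Scgb1a1 at 1731, 152 and 1049 CPM. The Ifitm genes are abundant in endothelial cells and fibroblasts, and the part of transcripts from other cells in these values was not tested. Among T cells in no other gate Ifitm2 had a log2 ratio of 0.01 in place of -1.14.

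Whether the higher level in epithelial cells and fibroblasts lay in many cells or in few was read after drawing 1000 UMIs from every cell, which removes differences in depth. Cells under 1000 UMIs were left out. Core UMIs were seen in every gate of the control, so no gate served as a background share. Whether they came from the gate's own cells was not tested. In the epithelial gate 434, 117 and 189 cells remained, and at least 1 core UMI was found in 8.06% (5.68 to 11.04), 22.2% (15.1 to 30.8) and 24.9% (18.9 to 31.7) of them. Without thinning these shares were 52.0%, 68.6% and 65.8%. At least 3 core UMIs were found in 0 of 434 control cells (3 counts would be 0.691%, and the exact upper limit is 0.846%), in 8 of 117 irradiated wild-type cells (6.84%, 3.00 to 13.0) and in 6 of 189 cells of the knockout with drug (3.17%, 1.17 to 6.78).

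In the epithelial gate more cells were positive in both irradiated libraries, and each positive cell held more core UMIs. Any rise in the mean would give both. Core UMIs spread evenly at random over the cells would leave 7.96%, 37.5% and 35.2% of cells positive. The control's share of 8.06% lay near this, while those of the irradiated libraries, 22.2% and 24.9%, lay below it. Their core UMIs were thus gathered in fewer cells than such a spread gives. Positive cells held 1.03, 2.12 and 1.74 core UMIs on average. The 5% of cells with the most core UMIs held 63.9%, 45.5% and 52.4% of them, and the control's value rests on 36 core UMIs. The mean per thinned cell was 5.67 times the control in irradiated wild type. Only 35 control cells were positive, and with the top 10% of cells removed none of the core UMIs of the control was left. The share of cells with a given gene before thinning pointed the same way: Ifit1 was seen in 3.12%, 22.03% and 13.2% of epithelial cells, Rsad2 in 3.12%, 16.9% and 8.42%, and Usp18 in 7.59%, 30.5% and 18.9%.

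Fibroblasts differed in this respect. At equal depth 16.2% (15.02 to 17.4) of control cells and 16.7% (13.2 to 20.7) of irradiated wild-type cells had at least 1 core UMI, and the mean per cell was only 1.14 times the control. Their shares without thinning were 61.9% and 70.8%. Cells with at least 3 core UMIs made up 0.392% and 1.23%. The knockout library with drug stood apart from both, with 25.3% (22.5 to 28.2) of cells positive and 1.94% with at least 3 UMIs.

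**Figure D3:**
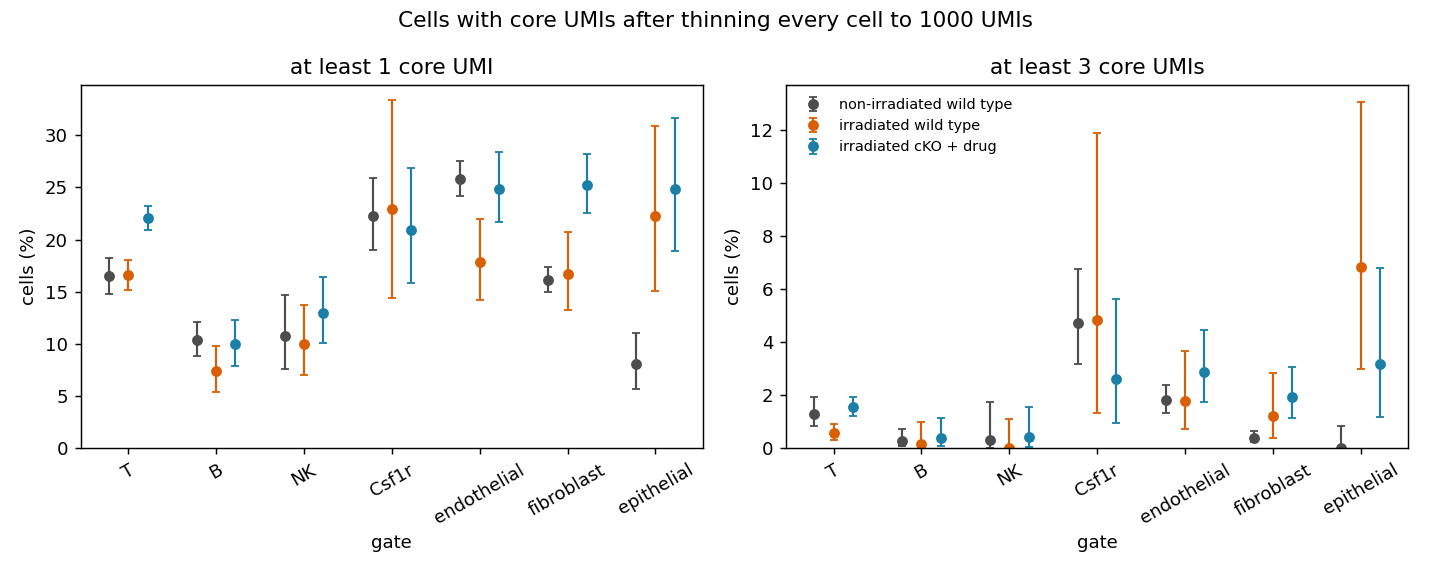
Share of cells, in percent, with at least 1 (left) and at least 3 (right) core UMIs in each gate after every cell was thinned to 1000 UMIs; points are libraries and bars exact 95% binomial intervals, which cover counting error only. In the epithelial gate the irradiated libraries are at 22.2% and 24.9% against 8.06% in the control, and in the fibroblast gate the irradiated wild-type share of 16.7% lies beside the control's 16.2%.

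Splitting the cells by depth, a choice made after seeing the data, showed where the fibroblast difference lay. Among fibroblasts with 500 to fewer than 5000 UMIs the core was at 223 CPM in the control and 231 CPM (181 to 290) in irradiated wild type. From 5000 to fewer than 15000 UMIs it was at 192 and 279 CPM (256 to 303), and at 15000 UMIs or more at 234 and 450 CPM (422 to 480). The difference was therefore largest among the deepest cells. Those were 11.8% of control fibroblasts and 20.99% of irradiated wild-type fibroblasts, where 89 cells held 47.3% of the gate's UMIs. In the knockout with drug the 3 levels were 343, 327 and 472 CPM, above the control at every depth.

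Epithelial cells of irradiated wild type were above the control at every depth. The levels from the shallowest to the deepest cells were 143.5, 107 and 113 CPM in the control and 635 (465 to 847), 460 (399 to 528) and 431 CPM (403 to 461) in irradiated wild type. In the knockout with drug they were 240, 340 and 681 CPM. T cells of irradiated wild type were above the control among the shallowest cells (254 against 189 CPM) and below it among the deepest (152 against 345 CPM).

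**Figure D4:**
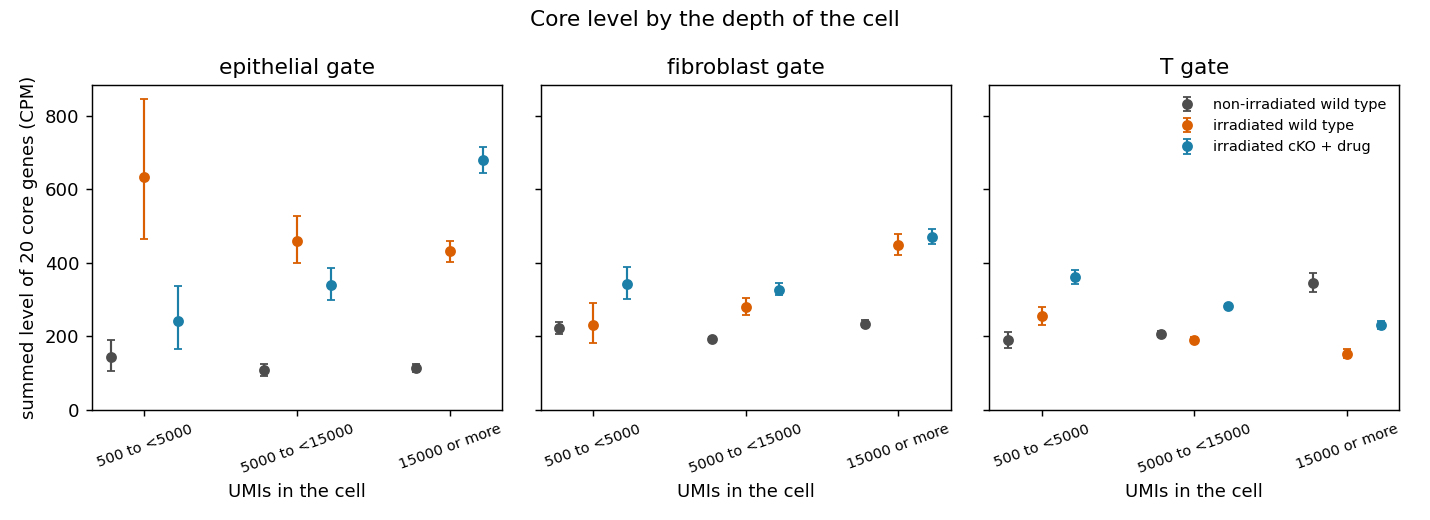
Summed level of the 20 core genes in CPM (y axis) by the number of UMIs in the cell (x axis) in the epithelial, fibroblast and T gates; points are libraries and bars exact 95% Poisson intervals. Irradiated wild type lies above the control in all 3 epithelial bins, while among fibroblasts the 2 are level at 231 and 223 CPM in the shallowest bin and apart at 450 and 234 CPM in the deepest.

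Single cells weighed on some sums. One cell held 139 of the fibroblast core UMIs in irradiated wild type (8.78%), and with the top cell of each library removed the fibroblast ratio was 1.59 (1.51 to 1.69). In the epithelial gate the top cell of irradiated wild type held 154 UMIs (13.9%), and without the top cells the ratio was 3.62 (3.27 to 3.99). The T gate ratio became 0.887 and the Csf1r ratio 0.682. In the endothelial gate 1 cell of irradiated wild type held 18.3% of the core UMIs, and the ratio went from 0.955 to 0.826 without the top cells.

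Within the fibroblast gate, cells with Pi16 or Dpp4, which mark adventitial fibroblasts, differed from cells with the alveolar fibroblast genes Npnt, Inmt, Tcf21 and Ces1d. The adventitial type had core levels of 234, 543 and 349 CPM in 755, 70 and 130 cells, a ratio of 2.32 (2.08 to 2.59) for irradiated wild type over control. The alveolar type had 202, 319 and 403 CPM in 2937, 321 and 744 cells, a ratio of 1.58 (1.48 to 1.69). The order of the irradiated libraries was opposite in the 2 types, with irradiated wild type highest in the adventitial and the knockout with drug highest in the alveolar cells.

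Epithelial cells were split at 50 UMIs of Sftpc, Sftpb and Lamp3, genes of surfactant-making alveolar type II cells, again after seeing the data. Cells at or above it had core levels of 64.2, 271 and 268 CPM in 241, 22 and 37 cells, a ratio of 4.23 (3.53 to 5.06) for irradiated wild type over control. Cells under it had 245, 519 and 718 CPM in 207, 96 and 153 cells, a ratio of 2.12 (1.89 to 2.38). In the knockout with drug 1 of these 153 cells held 590 of their 1452 core UMIs. The core of both kinds was thus higher in irradiated wild type. The median log2 ratio of the measured members was 0.76 at or above the cut and 0.13 under it, against 0.019 and -0.036 for all genes. The share of cells under the cut was larger in both irradiated libraries, and its part in the difference of the whole gate was not tested.

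**Figure D5:**
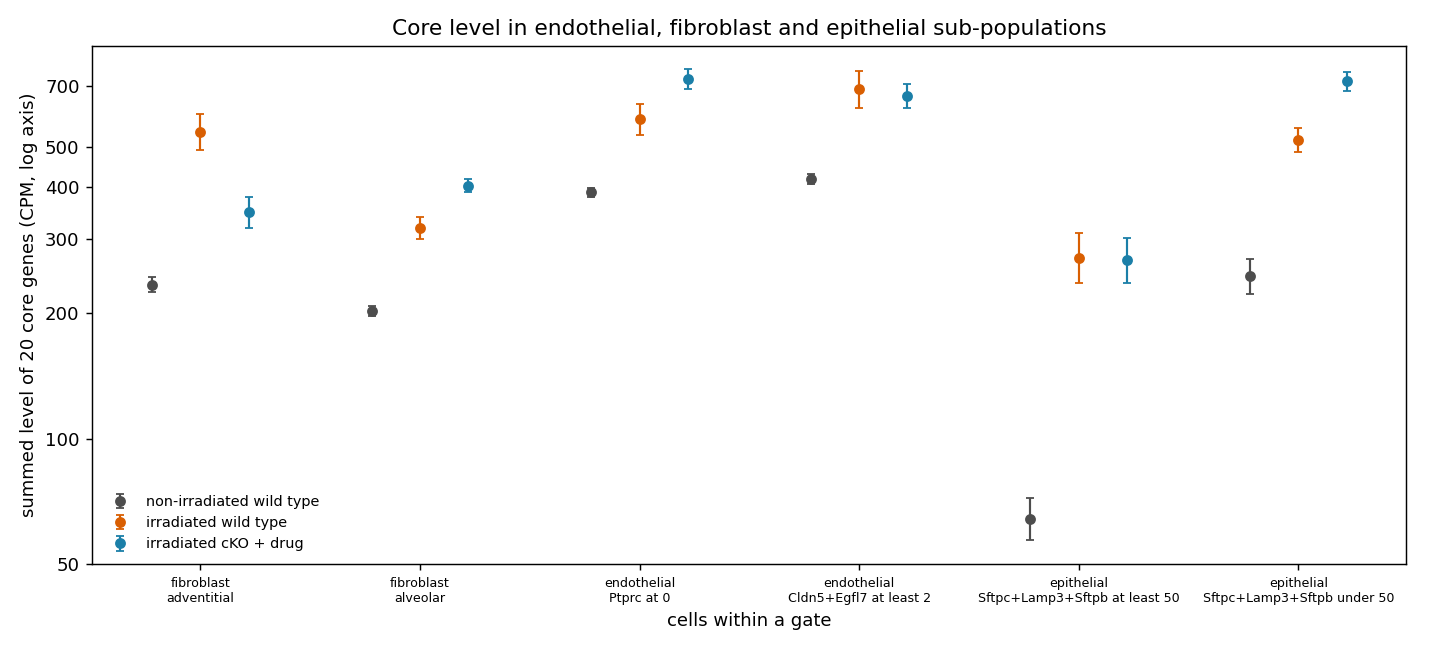
Summed level of the 20 core genes in CPM (log axis) in kinds of cells within the fibroblast, endothelial and epithelial gates; points are libraries and bars exact 95% Poisson intervals. In every kind shown the irradiated wild-type point lies above the control, from 319 against 202 CPM in alveolar fibroblasts to 271 against 64.2 CPM in epithelial cells with at least 50 UMIs of Sftpc, Sftpb and Lamp3.

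Since irradiated wild type holds cells of both sexes, the core was also read in cells with Xist and no Y-linked UMI. In that library these female-type cells had more core CPM than male-type cells in every gate, with 403 against 249 CPM in fibroblasts, 513 against 213 CPM in epithelial cells and 198 against 167 CPM in T cells; the male-type cells numbered 43 and 16 in the first and second of these gates. Among female-type cells alone the ratio of irradiated wild type to control was 4.49 (4.07 to 4.95) in epithelial cells and 1.97 (1.86 to 2.09) in fibroblasts. Sex and mouse cannot be told apart here.

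On the summed levels the core of the knockout library with drug stood above irradiated wild type by a ratio of 1.48 (1.43 to 1.54) in T cells and 1.56 (1.36 to 1.78) in B cells. With every cell thinned to 1000 UMIs the log2 ratio was 0.56 in T, 0.58 in B, 0.63 in NK, 0.60 in endothelial and 0.72 in fibroblast cells, while Csf1r-positive and epithelial cells were at 0.018 and -0.12. In T cells 3 of 40 members were higher and none lower, against 0.723% and 1.18% of 14111 genes, with a median log2 ratio of 0.13 against -0.04 for all genes, and 32 of the 40 lay above 0. The 3 were Ifit3 with a ratio of 3.38 (2.69 to 4.29), Ifit1 with 2.49 (2.15 to 2.89) and Rtp4 with 2.17 (1.95 to 2.42), and all 3 are core genes. At 1000 UMIs per cell 7 of 32 members were higher. Rtp4 was at 29.7, 19.9 and 43.3 CPM, and was seen in 15.7%, 12.1% and 21.2% of T cells.

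The higher T cell level was found in every kind of T cell and at equal depth. The core was at 176 and 246 CPM in cells with the γδ receptor gene Trdc, at 159 and 234 CPM in CD8 T cells, at 174 and 329 CPM in CD4 T cells and at 165 and 261 CPM in cells with naive-type genes, for irradiated wild type and knockout with drug. The CD4 ratio was 1.89 (1.73 to 2.07). Of T cells thinned to 1000 UMIs, 16.5%, 16.6% and 22.1% had a core UMI, and the mean per cell was 1.48 times that of irradiated wild type both with and without the top 5% of cells. Cells with at least 3 core UMIs made up 0.561% and 1.55%, and 60.1% of the difference in means was left without the top 5%. The difference thus lay both in the cells with the most core UMIs and in the rest. In the whole T gate the control stood at 224 CPM, between the irradiated libraries. By kind it was at 210 CPM in CD8, 210 in CD4 and 255 in naive-type cells, again between them. In cells with Trdc it was at 165 CPM (151 to 180), beside 176 CPM (166 to 187) in irradiated wild type. Naive-type cells made up 55.6%, 33.3% and 37.1% of the gate, and the part of this mix was not tested.

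In B cells 6 of 30 members were higher and 1 lower, against 2.17% and 6.05% of 10307 genes, with medians of 0.29 and -0.10. The higher ones were Isg15, Ifit1, Zbp1, Bst2, Lgals3bp and Slfn5. Ifit1 had the highest log2 ratio, 1.61, from 4 UMIs in irradiated wild type and 77 in the knockout with drug. Ifitm1 was the lower one, at 25.2 and 7.51 CPM. NK cells had 8 of 26 members higher and 1 lower, against 7.58% and 6.37% of 9151 genes, with medians of 0.18 and -0.04. The higher ones included Ifi27l2a, Ifitm3 (67.9 and 183 CPM), Isg15 (26.0 and 44.8 CPM) and Oasl2, and the lower one was Rsad2, at 20.9 and 7.71 CPM. The core ratio in NK cells was 1.14 (0.973 to 1.34), which did not differ from 1 beyond counting error.

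In Csf1r-positive cells 8 of 38 members were higher and 2 lower, against 8.27% and 6.25% of 10599 genes, with medians of 0.20 and 0.02. Ifitm3 was at 275 and 729 CPM, Ifi27l2a at 161 and 376 CPM and Rsad2 at 35.1 and 65.6 CPM. The lower ones were Oasl1, at 101 and 30.2 CPM, and Ifih1, at 56.6 and 18.4 CPM. The core as a whole was lower, with a ratio of 0.865 (0.796 to 0.940), which became 0.945 without the top cell of each library.

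In the endothelial gate 6 of 40 members were higher and 1 lower, against 4.57% and 3.68% of 12408 genes, with medians of 0.22 and 0.04. Ifit3 was at 10.6 and 33.7 CPM and Rtp4 at 26.5 and 52.6 CPM, while Oasl1, at 36.1 and 5.48 CPM, was the lower one. The core ratio was 1.16 (1.09 to 1.25) in the whole gate, 1.25 (1.13 to 1.38) among cells without Ptprc and 1.53 (1.37 to 1.72) among cells in no other gate, but 0.964 (0.853 to 1.09) among cells without Ptprc that carried Cldn5 and Egfl7. The direction thus depended on how endothelial cells were chosen.

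In fibroblasts 1 of 39 members was higher and none lower, against 2.45% and 1.07% of 12997 genes, with medians of 0.10 and 0.03. This was Ifi27l2a, at 605 and 946 CPM. The summed core gave a ratio of 1.09 (1.03 to 1.16), but at 1000 UMIs per cell the mean per cell was 1.65 times that of irradiated wild type. The adventitial type had a ratio of 0.641 (0.562 to 0.732) and the alveolar type one of 1.26 (1.18 to 1.35).

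In epithelial cells 4 of 33 members were higher and 2 lower, against 4.81% and 4.7% of 11205 genes, with medians of 0.03 and -0.02. The higher ones were Ifitm1 at 133 and 348 CPM, Ifit3 at 21.1 and 53.8 CPM, Xaf1 at 19.1 and 35.5 CPM and Samhd1, which degrades deoxynucleotides, at 36.3 and 70.4 CPM. The lower ones were Lgals3bp, at 265 and 136 CPM, and Eif2ak2, at 27.5 and 14.5 CPM. The core ratio of 1.30 (1.21 to 1.41) rested on 1 cell with 590 core UMIs, which was 34.7% of the core UMIs of the gate. Without the top cell of each library the ratio was 0.987 (0.905 to 1.08), and the 159 UMIs of Ifit3 came from 12 cells.

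The rest of the pathway was read from lists of genes that are not among the 40. Among the transcription factors, Irf7 was higher in irradiated wild type than in the control in both epithelial cells and fibroblasts. In epithelial cells Irf7, the factor that amplifies interferon production, was at 53.0 against 6.58 CPM and Irf9 at 35.1 against 20.7 CPM. In fibroblasts Irf7 was at 29.3 against 12.2 CPM and Irf1 at 169 against 110 CPM. Of the sensing genes 2 of 8 were higher in epithelial cells, Ddx58 (RIG-I) at 26.7 against 13.3 CPM and Tlr3 at 12.4 against 5.02 CPM, and 0 of 9 in fibroblasts. Of the receptor and kinase genes 1 of 9 was higher in epithelial cells and 0 of 8 in fibroblasts. Over all genes 15.6% were higher in epithelial cells and 2.01% in fibroblasts, so the epithelial receptor count was no higher than that of all genes.

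Genes that interferon-gamma induces overlap in their control with the 40 members and were read beside them. In epithelial cells 5 of 16 were higher and 1 lower (15.6% and 9.55% of all genes), and in fibroblasts 4 of 18 were higher and none lower (2.01% and 3.31%). In T cells 4 of 19 were higher and none lower (3.43% and 9.07%). The summed core was lower there, but with cells thinned to 1000 UMIs its log2 ratio was only -0.058. Ifng itself was at 61.0 against 38.7 CPM in T cells. In NK cells, the gate with the highest Ifng level, it was at 525 against 728 CPM. In the knockout with drug T cells had 2 of 19 higher than irradiated wild type (0.723% of all genes), Irgm1 at 94.2 against 51.7 CPM and Ifi47 at 64.0 against 33.5 CPM, and Irf7 was at 35.6 against 19.0 CPM.

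Of the type I interferon genes themselves only Ifnb1 is described here, and its transcripts were few and lay mostly in the control. In the epithelial gate 0 of the 10 listed interferon ligand genes had enough UMIs to be measured. Ifnb1, which encodes interferon-beta, had 246 UMIs in 42 cells of the control, 2 UMIs in 2 cells of irradiated wild type and 41 UMIs in 9 cells of the knockout with drug. Of the control's UMIs 141 were in 15 Csf1r-positive cells (29.4 CPM, 24.7 to 34.6) and 61 in a single cell. No UMI of Ifnb1 was seen in the epithelial gate of any library.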

How the data were processed

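Single-cell 3′ libraries of mouse lung, 1 per group, were analysed from the deposited UMI count matrices, which the authors made with software of version 3.1.0 per the file headers (its name is not given in the sources used here) and build mm10 per the submitters' processing notes. The files hold raw counts, with a minimum of 500 UMIs per barcode. Samples were grouped by their titles. Cells were filtered and gated, counts summed per gate and library, and CPM, ratios and exact intervals computed in Python 3.11.15 with numpy 2.4.6, scipy 1.17.1, pandas 2.3.3 and matplotlib 3.10.9. Calls and filters stand with the results, and the calculation was tested on simulated data. The members, gates and lists were chosen with earlier results of these data known. Genes named are, per gate and comparison, the 3 highest and 2 lowest log2 ratios among members with at least 30 UMIs in the higher library, the most abundant member of each role, and called genes of the other lists. Other members were named after their values were seen. Doublets were kept in the values given. In an alternative the 1918, 401 and 1020 barcodes with the highest Scrublet scores (scanpy 1.11.5) were removed. These numbers were set by an assumed rate of 0.8% per 1000 barcodes, while Scrublet's own calls were 474, 0 and 0. Further alternatives were 20 CPM added, no filter on UMIs, median-of-ratios scaling, thinning to 1000 UMIs, female-type cells, and cells in 1 gate. How cells or mice were pooled, and how free RNA was treated before deposit, is not given in the sources used here. One gene of the pathway is not reported here.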

Additional observations from a re-analysis of the deposited data

How the results depend on the processing

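In what follows the first comparison is irradiated wild type over control and the second the knockout with drug over irradiated wild type, and the core ratio is its log2. No paired analysis was possible because each group has 1 library and no replicate number. Without the filter on low values every count stayed within 1.5 times, the largest changes being 22 in place of 19 epithelial and 3 in place of 2 NK members higher and 11 in place of 9 NK members lower in the first comparison. The median of B cells in the first comparison went from -0.33 to -0.22 and that of NK cells in the second from 0.18 to 0.070. Of the planned settings 136 counts stayed within 1.5 times and 60 did not, 95 medians stayed within 1.5-fold and 3 did not, and 64 core ratios stayed within their counting interval and 34 did not. The epithelial core ratio kept its sign in the first comparison under every setting run, from 1.08 to 2.50, and the fibroblast one did too, from 0.19 to 0.98. The cause of the moves was not tested.

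With 20 CPM added, the members higher in the first comparison became 0 in NK, 1 in Csf1r, 2 in endothelial and 2 in fibroblast cells, and those lower 5 in B and 5 in NK cells. In the second comparison 2 were higher in B, 3 in NK, 5 in Csf1r and 3 in endothelial cells, and 0 lower in NK and 1 in epithelial cells.

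With median-of-ratios scaling the core ratio of the first comparison was -0.36 in T, 0.072 in endothelial and 1.71 in epithelial cells, with 0 NK members higher, and that of the second 0.69 in T cells. This scaling moved the median of all genes by -0.19 in epithelial and -0.12 in NK cells in the first comparison and by 0.11 in B cells in the second.

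Thinning to 1000 UMIs left 8 to 34 members measured in the first comparison and 7 to 32 in the second. In the first, 3 members were higher in T, 0 in NK, 1 in Csf1r, 2 in endothelial, 3 in fibroblast and 3 in epithelial cells, and 3 lower in NK, 11 in Csf1r, 16 in endothelial and 3 in fibroblast cells. The core ratio was -0.058 in T, -0.52 in endothelial, 0.19 in fibroblast and 2.50 in epithelial cells, and the Csf1r median -0.71. In the second, 7 were higher in T, 2 in B, 3 in NK, 11 in endothelial, 10 in fibroblast and 1 in epithelial cells, and 0 lower in B, NK, Csf1r and endothelial and 1 in epithelial cells. The core ratio was 0.63 in NK, 0.018 in Csf1r, 0.60 in endothelial, 0.72 in fibroblast and -0.12 in epithelial cells, and the Csf1r median 0.86. Signs turned for Slfn8 (-0.072) in NK and Oasl1 (-0.56) and Trim30a (-0.12) in Csf1r cells in the first, and for Rsad2 (0.38) in NK and Samhd1 (-0.22) in epithelial cells in the second.

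Among female-type cells 15 members were lower in B cells in the first comparison, and the core ratio was 0.10 in NK, -0.68 in Csf1r, 0.98 in fibroblast and 2.17 in epithelial cells. In the second 11 were higher in B, 5 in NK and 0 in fibroblast cells, 0 lower in B, 4 in NK and 1 in fibroblast cells, and the core ratio was 0.49 in T, -0.11 in NK, 0.060 in Csf1r and -0.036 in fibroblast cells. Ifitm1 turned to 0.34 in B cells in the second, and Oasl1 in Csf1r cells to -1.10 in the first and 0.13 in the second.

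Among cells in 1 gate only, 0 members were higher in NK and 1 in endothelial cells in the first comparison, and 3 lower in T, 11 in Csf1r and 1 in epithelial cells. The core ratio was -0.068 in T, -1.12 in Csf1r, -0.23 in endothelial, 0.87 in fibroblast and 2.44 in epithelial cells, and the epithelial median 1.39. In the second 15 were higher in endothelial and 2 in fibroblast cells, 0 lower in NK, 1 in Csf1r and 0 in endothelial cells, with core ratios of 0.11 in Csf1r, 0.62 in endothelial and -0.070 in fibroblast cells. In the first, Ifitm2 turned to 0.012 in T, Oasl1 to -0.72 in Csf1r and Slfn5 to 0.43 in fibroblast cells.

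A further setting removed the barcodes with the highest Scrublet scores. In the first comparison 3 members were then higher in T and 0 in NK cells, and 3 lower in T, 5 in NK and 0 in fibroblast cells. The core ratio was -0.39 in B, -0.57 in Csf1r and 0.93 in fibroblast cells. In the second 4 were higher in NK and 3 in endothelial cells, 2 lower in NK and 1 in fibroblast cells, with core ratios of 0.018 in endothelial and -0.12 in fibroblast cells.

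Settings chosen after seeing the data gave the following. Among cells without Ptprc, 11 endothelial members were higher and 1 lower in the first comparison, with a core ratio of 0.58, and in the second 2 endothelial and 1 fibroblast members were lower, with an endothelial core ratio of 0.32 and Oasl1 at 0.35. With Cldn5 and Egfl7 required as well, 14 were higher and 2 lower, with a median of 0.39 and a core ratio of 0.71, and in the second 4 were lower with a core ratio of -0.052. Oasl1 turned to -0.33 and Ifi27l2a to -0.17 in the first, and Oasl1 to 0.80 in the second. Among epithelial cells with at least 50 UMIs of Sftpc, Sftpb and Lamp3 5 were lower in the first comparison, and in the second the core ratio was -0.019 and Ifit3 -0.64. Under 50 UMIs 9 were higher and 6 lower with a core ratio of 1.08, and 9 were higher in the second.

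With 86 to 118 cells of irradiated wild type in the Csf1r and epithelial gates, members under 20 UMIs over a pair were not measured, and a difference there was not detectable at this depth.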

Other observations

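The levels were also compared with those of all other genes. Over the 21 sums of 7 gates and 3 libraries, each gate centred on its mean, the log2 level of the summed core was set beside that of 9717 genes. Isg15 had the highest Pearson correlation, 0.97, followed among the members by Rtp4 at 0.89 (rank 3) and Ifit1 at 0.84 (rank 9). These members are themselves summed in the core, so their high values are partly built in. Isg15 is also the largest term of the core, with a mean of 81.9 CPM over the 21 sums. The 8 genes outside the members with the highest values were Med31 at 0.91, Ufd1, Pofut2, Creld2, Timm8b, Ndufa11, Bax and Nr2c2ap at 0.84. The 21 values share libraries and depth, and the epithelial gate carried 73.9% and the fibroblast gate 11.3% of the centred sum of squares of the core, so the order rests mostly on 3 epithelial values.

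Cells in no gate, which were 3069, 1536 and 2181 of the kept cells, had a core level of 258, 241 and 327 CPM, in the order control, irradiated wild type and knockout with drug.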
